A study of Mus musculus with 22 samples.

Results

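The comparison of a virus carrying wild-type CREB with a virus carrying GFP after 8 h is described here. Its members were the 8 of 22 libraries labelled WT or GFP at 8 h, with 4 libraries in each group, and libraries that carried the same replicate number were compared as a pair. All 8 came from cortical neurons of C57BL/6 mouse embryos taken at E16.5 and labelled Creb1-/-, so the GFP controls carried the same deletion. The neurons had been in culture for 7 days and had been silenced for 12 to 16 h with 1 µM tetrodotoxin (TTX), which blocks sodium channels, and 100 µM D-AP5, which blocks NMDA receptors. A herpes simplex virus then expressed either GFP or wild-type CREB for 8 h, and both groups were depolarized for 2 h with 55 mM KCl. The labels do not name the deleted part of Creb1. The comparison asks which RNAs differ once the virus supplies wild-type CREB to Creb1-/- neurons that are being depolarized. Nothing in the labels states that the replicates are independent cultures, and the p-values therefore describe the spread among these libraries alone, which may be technical.

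CREB is a transcription factor that binds cAMP response elements as a dimer. Calcium and cAMP signals lead to its phosphorylation at a serine by kinases of the PKA, CaMK and RSK families, and the phosphorylated form recruits the coactivators CBP and p300, while CRTC proteins provide another route. In cortical neurons it is known for the induction of immediate early genes such as Fos and Nr4a1 and of Bdnf, and for its role in survival and plasticity. Related factors, Crem and Atf1 among them, bind the same element.

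The element can be read in the sequences ahead of 5 activity-linked genes described below, none of which was called. For the neuropeptide genes Sst and Scg2 and for the immediate early genes Fos, Npas4 and Nr4a1, the 250 bases before the transcription start are given, each 5′ to 3′ on the gene's own strand, from RefSeq on build GRCm38.p6. Capitals mark the full palindromic element TGACGTCA or the short form TGACG, read on either strand and so also written CGTCA. A full element contains the short form on both strands. Sst and Scg2 hold the full element, beginning at position -48 and at position -68 from the start, and Fos, Npas4 and Nr4a1 hold short forms only.
Sst, chr16:23890845-23891094, minus strand: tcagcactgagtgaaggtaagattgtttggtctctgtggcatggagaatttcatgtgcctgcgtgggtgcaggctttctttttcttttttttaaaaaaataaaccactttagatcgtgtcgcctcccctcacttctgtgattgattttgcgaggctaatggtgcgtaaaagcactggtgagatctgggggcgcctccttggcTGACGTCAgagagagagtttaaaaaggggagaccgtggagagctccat
Scg2, chr1:79440027-79440276, minus strand: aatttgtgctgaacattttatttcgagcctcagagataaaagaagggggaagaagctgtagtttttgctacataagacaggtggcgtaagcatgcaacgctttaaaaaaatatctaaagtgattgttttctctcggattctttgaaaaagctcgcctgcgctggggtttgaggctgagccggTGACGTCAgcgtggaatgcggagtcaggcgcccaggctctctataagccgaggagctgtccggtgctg
Fos, chr12:85473640-85473889, plus strand: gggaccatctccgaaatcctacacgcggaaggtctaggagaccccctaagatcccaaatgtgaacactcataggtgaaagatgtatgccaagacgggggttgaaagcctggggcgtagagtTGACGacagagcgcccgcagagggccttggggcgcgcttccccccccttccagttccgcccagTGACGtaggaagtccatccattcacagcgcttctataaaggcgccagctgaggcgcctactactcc
Npas4, chr19:4989972-4990221, minus strand: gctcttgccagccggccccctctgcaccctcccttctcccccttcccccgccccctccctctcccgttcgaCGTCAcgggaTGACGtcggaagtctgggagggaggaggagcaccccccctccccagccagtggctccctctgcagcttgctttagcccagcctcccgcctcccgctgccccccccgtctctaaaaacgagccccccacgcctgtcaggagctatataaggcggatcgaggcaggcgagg
Nr4a1, chr15:101266596-101266845, plus strand: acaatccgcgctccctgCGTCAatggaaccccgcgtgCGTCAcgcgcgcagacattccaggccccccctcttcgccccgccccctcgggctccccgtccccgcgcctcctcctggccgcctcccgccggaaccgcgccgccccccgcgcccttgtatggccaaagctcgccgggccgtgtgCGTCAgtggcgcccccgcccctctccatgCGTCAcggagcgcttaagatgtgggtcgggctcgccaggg
In the same window, 1.55% of 32851 RefSeq promoters held TGACGTCA and 17.8% held TGACG on either strand. Of the listed CREB targets, 30 had a promoter entry, and 5 of those tested held the full element (Sst, Scg2, Pcsk1, Cartpt and Dusp1). Creb1 held neither form. Of Creb1 and the 24 genes named outside the lists, 19 had a promoter entry, of which 6 held TGACG and 1 the full element. The shares of 1.55% and 17.8% count all promoters, tested or not, and are no background for these genes. Among the 8867 long named genes tested and matched to a promoter, 3.27% held TGACGTCA, 28.5% held TGACG alone and 68.2% held neither. A match is a description of the letters and not evidence of a bound site.

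The authors' tables hold 24490 gene entries per library in fragments per kilobase of transcript and sequencing depth (FPKM). Implied depth ran from 12.1 M to 21.2 M reads per library. GFP replicate 2 stood apart. Its highest correlation with any other of the 8 libraries was 0.836, against 0.915 to 0.928 for the others, and 352 of its 11085 long named genes lay more than 2-fold above the other libraries, against 22 to 103. Genes after which a pseudogene is named made up 98 of those 352, or 39.8% of the 246 such genes tested, against 2.34% of the genes without one. Results are therefore given with and without replicate 2, which removes the whole pair from a paired fit. Deviations of same-numbered libraries 1 to 4 correlated over all genes at 0.178, 0.0469, 0.191 and 0.176, against -0.152 to 0.0638 for libraries with other numbers. Over long named genes the correlations were 0.623, 0.0737, 0.509 and 0.378, against -0.394 to 0.153. Pair 2 lay inside the range of other numbers both times, and pairs 1, 3 and 4 lay above it. The numbers in the deposited file names give replicates 3 and 4 a run each but do not separate replicates 1 and 2. Sex-linked genes did not match within every pair. Ddx3y, which lies on the Y chromosome, stood at 0.234 scaled FPKM in GFP replicate 1 and at 32.8 in WT replicate 1, at 0.109 and 5.16 in the second pair, and between 15.9 and 47.9 in the other 4 libraries.

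Creb1 (chromosome 1, 64532804 to 64604548, mm10), which encodes CREB, was the gene the virus supplied. It stood at 12.7, 9.87, 15.2 and 11.5 scaled FPKM in GFP replicates 1 to 4 and at 718, 1258, 780 and 2126 in WT replicates 1 to 4. The GFP libraries, although labelled Creb1-/-, thus held Creb1 RNA above the minimum of 1 FPKM, and the values do not show which part of the gene it came from. Every WT library lay far above every GFP library, and the WT libraries varied more among themselves than the GFP libraries did. The log2 difference was 6.39 (95% interval 5.48 to 7.30), an 83.9-fold excess with an interval of 44.7 to 157, and it was 5.71, 6.86, 5.59 and 7.41 in pairs 1 to 4. Of its variance over the 8 libraries, 97.9% lay between the viruses and 0.666% between pairs. By limma with Benjamini-Hochberg adjustment over all genes it did not pass in the paired fit (adjusted p = 0.125), which has 3 residual degrees of freedom, and it passed without the pairing (adjusted p = 5.27e-04). Without replicate 2 the paired difference was 6.24 (adjusted p = 0.558). After 4 h, in other libraries, Creb1 stood at 11.9 and 15.8 scaled FPKM with GFP and at 248 and 253 with WT, a log2 difference of 4.10 (adjusted p = 0.266).

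Over all genes, limma called none or Creb1 alone with all 8 libraries. The paired fit called 0 of 11989 genes (0%) and the fit without the pairing called Creb1 alone (0.00834%). Without replicate 2 the paired fit called 0 of 11795 (0%). Leaving out replicate 1 called the small RNA entry Mir106b, and leaving out replicate 3 called Snord35b and Snord95. Without adjustment, 104 genes had a p under 0.05 with all pairs (0.867%) and 252 had one without replicate 2 (2.14%). WT was higher in all 4 pairs for 663 genes (5.53%) and lower in all 4 for 514 (4.29%). Every WT library lay above every GFP library for 31 genes (0.259%) and below for 26 (0.217%). Over all genes, 5945 had a positive and 6044 a negative difference, with a median of 0.00. Of the 11777 also tested without replicate 2, 6248 were then higher and 5529 lower.

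**Figure D1:**
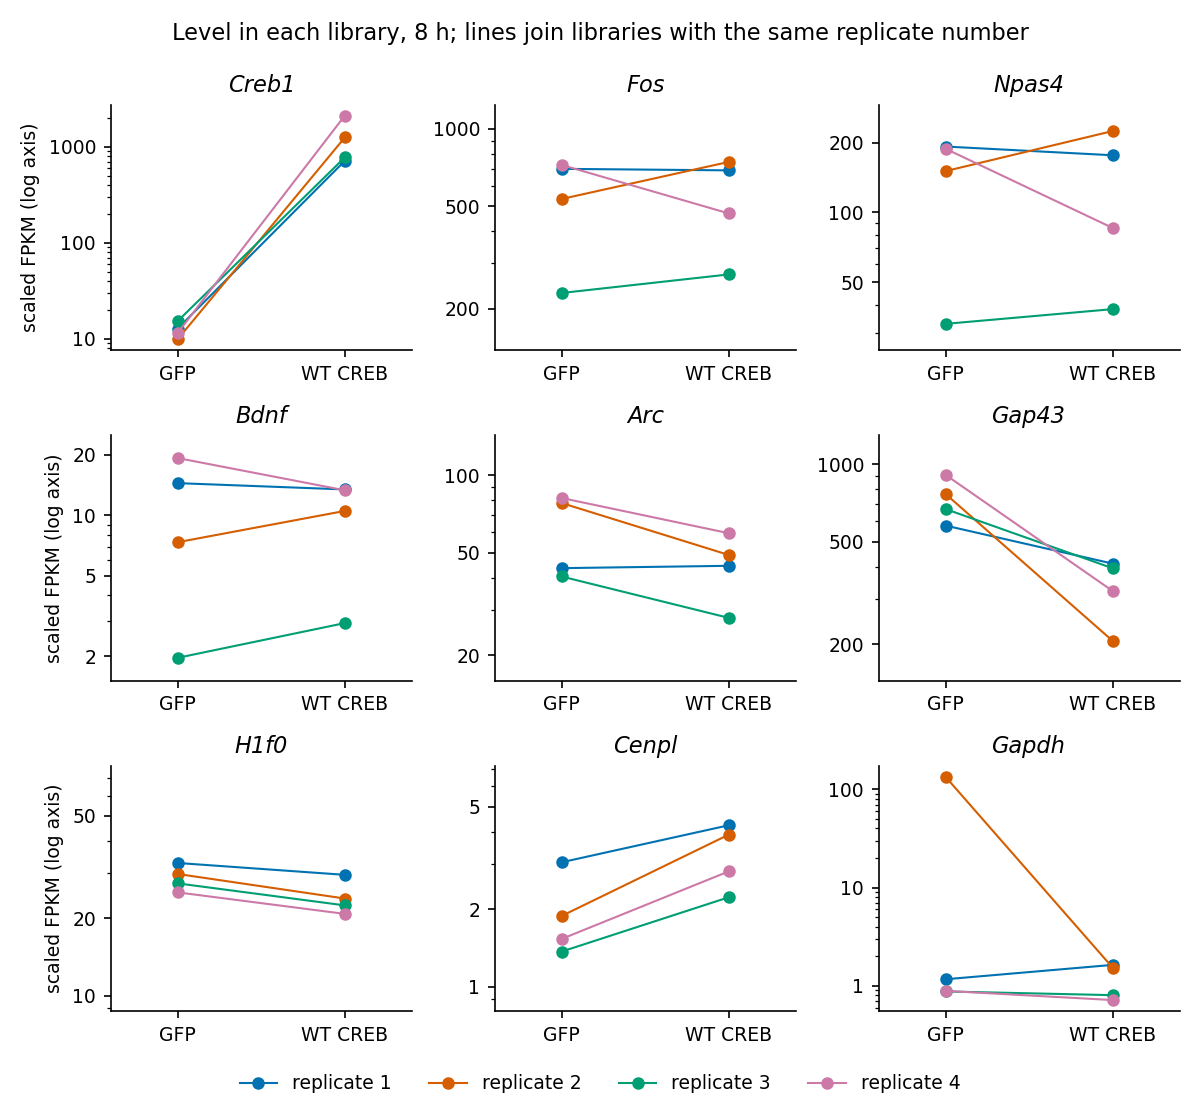
Scaled FPKM on a log axis for 9 genes in GFP and WT CREB libraries at 8 h, with lines joining libraries of the same replicate number. Creb1 is far higher with WT in all 4 pairs, Fos, Npas4 and Bdnf are lowest in replicate 3 with either virus, Gap43 is lower with WT in all 4 pairs, and Gapdh is high in GFP replicate 2 alone.

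No relative of CREB was called by limma. Of 17 family members 13, Creb1 included, passed the minimum of a mean of 1 FPKM, and 5 of them were higher and 8 lower with WT (median -0.03). Without replicate 2, 7 were higher and 6 lower (median 0.00). Crem, whose product binds the same element and includes an inducible repressor, stood at 46.1, 25.0, 14.0 and 45.6 scaled FPKM in GFP and at 51.0, 62.0, 19.3 and 38.4 in WT. The groups overlapped, the largest gap lay in pair 2, and the log2 difference was 0.40 (-0.26 to 1.07) with all pairs and 0.11 without replicate 2. Atf1, the closest relative of CREB together with Crem, stood between 2.35 and 3.15 in GFP and between 1.95 and 4.52 in WT (log2 difference -0.02, -0.40 to 0.36). Atf5, an ATF4-related factor, was at -0.25 (-0.53 to 0.02), and Atf4 itself, the factor of the integrated stress response, at 0.04 (-0.33 to 0.42). Creb3l2, Creb3l4, Creb5 and Crebrf lay under the minimum.

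The machinery that acts on CREB showed no call either. Of 8 coactivator genes tested 4 were higher and 4 lower, and 3 and 5 without replicate 2. Crebbp, which encodes CBP, had a log2 difference of 0.00 (-0.26 to 0.27), Ep300, which encodes p300, one of 0.03 (-0.22 to 0.29), and Crtc1, the main neuronal CRTC coactivator, one of -0.07 (-0.23 to 0.10). Among 33 kinase and phosphatase genes 20 were higher and 13 lower (median 0.02), and 25 and 8 without replicate 2 (median 0.04). Prkaca, a catalytic subunit of PKA, was at -0.05 (-0.33 to 0.24), Camk4, a nuclear calmodulin kinase that phosphorylates CREB, at 0.03 (-0.17 to 0.22), and Ppp3cb, a catalytic subunit of calcineurin, at 0.15 (-0.04 to 0.34). Ppp1cc, a catalytic subunit of protein phosphatase 1, stood at 72.8 scaled FPKM in GFP replicate 2 and between 3.92 and 6.28 in the other 7 libraries. Genes of O-GlcNAc cycling, the sugar modification that also occurs on CREB, were higher in 8 of 10 with all pairs (median 0.11) and in 6 of 10 without replicate 2 (median 0.02). Amdhd2, which returns GlcNAc-phosphate to glycolysis, was at 0.19 (0.00 to 0.39), and Ogt, the transferase, at 0.19 with all pairs and -0.01 without replicate 2.

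Immediate early transcription factors are the earliest genes that depolarization induces, and replicate 3 held the lowest level of most of them with either virus. Of 29 on the list, 27 passed the minimum (Fosl1 and Klf2 did not), with 12 higher and 15 lower (median -0.02), 0 called and 0 at an unadjusted p under 0.05 by limma. Fos stood at 699, 534, 230 and 723 scaled FPKM in GFP replicates 1 to 4 and at 689, 743, 272 and 469 in WT. Npas4, a factor induced by calcium entry, stood at 192, 151, 33.0 and 188 in GFP and at 176, 224, 38.2 and 85.5 in WT. Nr4a1, an orphan nuclear receptor, stood at 547, 314, 81.9 and 442 in GFP and at 477, 476, 90.2 and 235 in WT. In each of the 3 genes replicate 3 was the lowest library of both viruses, and the groups overlapped. Their log2 differences were 0.02 (-0.49 to 0.53) for Fos, -0.12 (-0.87 to 0.63) for Npas4 and -0.09 (-0.75 to 0.57) for Nr4a1. Egr1, a zinc finger factor, was at -0.17 (-0.60 to 0.27) and Junb, a partner of Fos, at -0.15 (-0.59 to 0.29).

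Nearly all of these factors had 1 direction in pair 2 and the opposite one in pair 4, while pairs 1 and 3 were divided. WT was lower than GFP for 19 of 27 in pair 1 (median -0.03), higher for 24 in pair 2 (median 0.48), higher for 16 in pair 3 (median 0.05) and lower for 26 in pair 4 (median -0.56). Pair 2 holds GFP replicate 2. Without the whole pair, WT replicate 2 included, 1 factor was higher and 26 were lower (median -0.17), with 0 called and 1 at an unadjusted p under 0.05. With GFP replicate 2 alone left out and no pairing, the median was 0.01. The pairs left without replicate 2 are balanced and give the same differences with or without the pairing. The change from 0.01 to -0.17 thus came with leaving out WT replicate 2. Replicate 3 was the lowest library of both viruses for 23 of 27 factors (85.2%), against 1310 of 11989 genes (10.9%). Between pairs lay a median of 90.0% of their variance and between viruses 0.375%. Over all genes tested the medians were 61.9% and 5.50%, and the degrees of freedom alone would give 42.9% and 14.3%.

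**Figure D2:**
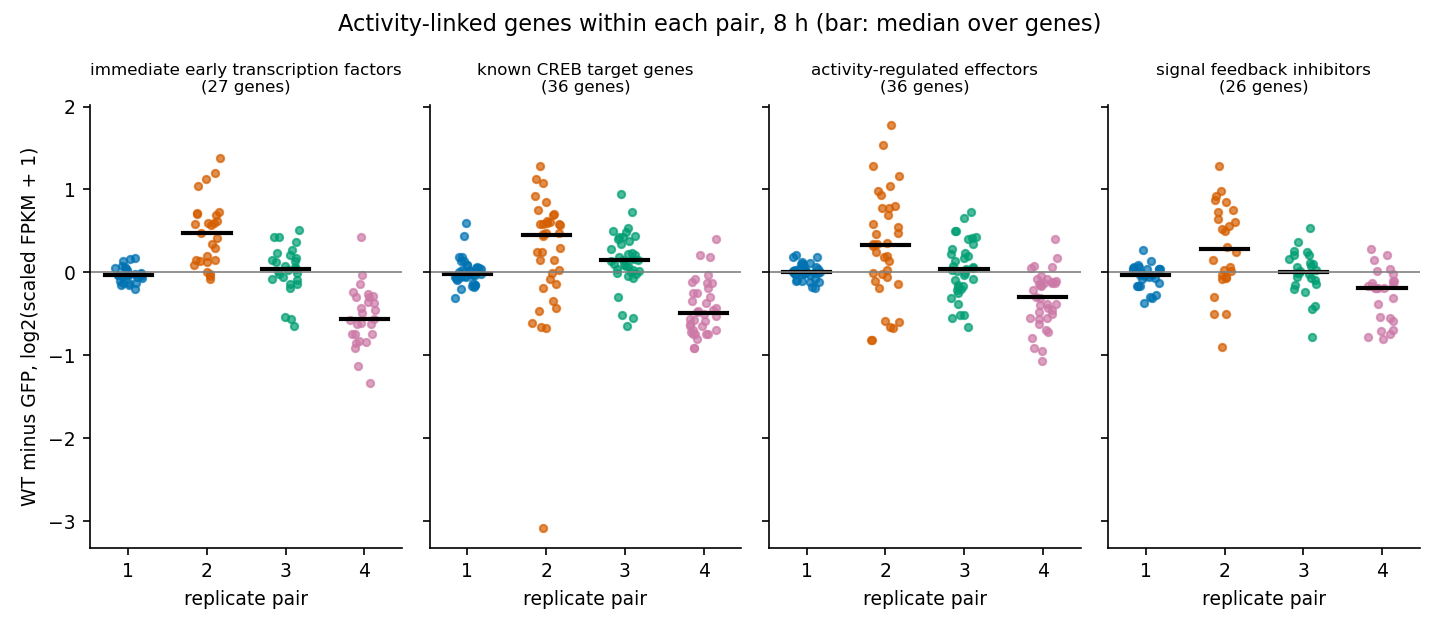
Difference of WT minus GFP on the log2(scaled FPKM + 1) scale for each gene of 4 activity-linked lists in each replicate pair at 8 h; each point is a gene and each bar the median over genes. The immediate early factors center near 0 in pairs 1 and 3, at 0.48 in pair 2 and at -0.56 in pair 4.

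Known CREB targets gave the same picture; 19 of the 36 tested are also on another activity list, so the counts are not independent. Of 40 targets 36 were tested, since Pdyn, Ptgs2 and Vip lay under the minimum and Per1 had a failed estimate, and 17 were higher and 19 lower (median -0.01). Bdnf, the secreted growth factor, stood at 14.5, 7.35, 1.96 and 19.3 scaled FPKM in GFP and at 13.5, 10.5, 2.92 and 13.3 in WT. Sst, which encodes somatostatin and holds the full element printed above, stood at 190, 186, 66.5 and 180 in GFP and at 183, 146, 86.6 and 111 in WT. Scg2, the other printed promoter with a full element, encodes secretogranin II and stood at 63.6, 58.6, 13.4 and 71.9 in GFP and at 66.7, 51.4, 23.0 and 37.9 in WT. Replicate 3 was again low in both viruses, and the groups overlapped for all 3 genes. The log2 differences were 0.07 (-0.41 to 0.55) for Bdnf, -0.18 (-0.66 to 0.30) for Sst and -0.07 (-0.77 to 0.62) for Scg2. The medians of the list in pairs 1 to 4 were -0.02, 0.45, 0.15 and -0.49, and replicate 3 was lowest in both viruses for 26 of 36 targets. Without replicate 2, 11 were higher and 25 lower (median -0.09). The median was 0.03 with GFP replicate 2 alone left out and no pairing.

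Arc, a target and effector whose protein regulates AMPA receptor endocytosis, was the single gene of the list at an unadjusted p under 0.05. It stood at 43.5, 77.9, 40.4 and 81.5 scaled FPKM in GFP and at 44.4, 48.9, 27.9 and 59.4 in WT. WT was lower in 3 of 4 pairs, the groups overlapped, and the log2 difference of -0.40 (-0.73 to -0.07) did not pass the adjustment by limma (adjusted p = 0.945). Without replicate 2 it was -0.31 (-0.66 to 0.04). Dusp1, Pcsk1 and Cartpt, the other tested targets with a full element, were at -0.18 (-0.56 to 0.19), 0.27 (-0.42 to 0.96) and -0.55 (-2.39 to 1.29). Cartpt, a neuropeptide precursor, stood at 78.8 scaled FPKM in GFP replicate 2 and between 3.35 and 23.5 elsewhere.

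Later activity-regulated effectors and the inhibitors that end the signal divided in the same way. Of 36 effectors tested 18 were higher and 18 lower with all pairs (median -0.01), and 7 were higher and 29 lower without replicate 2 (median -0.10). Their median was 0.01 with GFP replicate 2 alone left out and no pairing. Homer1, a postsynaptic scaffold with an activity-induced short form, was at 0.27 (-0.78 to 1.32), Nptx2, a secreted pentraxin that gathers AMPA receptors, at 0.15 (-0.36 to 0.67), and Syt4, a synaptotagmin, at 0.35 (-0.27 to 0.98). Of 26 signal inhibitors 11 were higher and 15 lower with all pairs (median -0.01), and 5 were higher and 21 lower without replicate 2 (median -0.07). For the inhibitors the median was -0.02 with GFP replicate 2 alone left out and no pairing. Dusp6, an ERK phosphatase, was at -0.01 (-0.49 to 0.46), Rgs2, which limits G protein signals, at 0.07 (-0.57 to 0.71), and Sik1, a kinase that holds CRTC proteins out of the nucleus, at 0.00 (-0.74 to 0.73). In pair 4 WT was lower for 31 of 36 effectors and 21 of 26 inhibitors.

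After 4 h of expression, in libraries that share no control with those at 8 h, more of these genes stood above GFP. There were 2 pairs. All 27 immediate early factors had a positive difference (median 0.36), with 24 higher in pair 1 and 24 in pair 2, while 6553 of 11860 genes had one overall. Of the 36 CREB targets 30 were higher (median 0.24), and of the 36 effectors 29 (median 0.18), although the effectors divided 17 to 19 in pair 1 and 34 to 2 in pair 2. Gadd45b, a stress and activity gene that acts in DNA demethylation, stood at 20.3 and 50.1 scaled FPKM with GFP and at 28.7 and 83.7 with WT at 4 h (log2 difference 0.61), and was at 0.01 (-0.19 to 0.21) at 8 h. Signal inhibitors were higher in 19 of 26 (median 0.10) and divided 13 to 13 in pair 1. Other lists also stood above GFP at 4 h, with 14 of 15 cell cycle genes higher (median 0.47), 62 of 78 ribosomal protein genes (median 0.12) and 14 of 17 astrocyte markers (median 0.23). The astrocyte markers were higher in 17 of 17 in pair 1 (median 0.82) and lower in 15 of 17 in pair 2 (median -0.45), and their part in the 4 h values was not tested. The difference was smaller at 8 h than at 4 h for 27 of 27 factors and 30 of 36 targets. The factors varied together between libraries, so these counts are not independent, and the same count over all genes was not taken. Limma called none of these differences between times (smallest adjusted p = 0.9998), and 2 of the factors reached an unadjusted p under 0.05. Of 12105 entries in that fit, 4 were called at 4 h (0.033%) and the same 4 between the times (0.033%), and all 4 were small RNA entries.

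The genes with the most regular differences after Creb1 were chosen as those with the same sign in all pairs and the smallest p. Their sign, intervals, variance shares and gaps between the groups follow in part from that choice and are no support. All these genes had an adjusted p of 0.945 by limma. The intervals given for them are from the paired fit. Without the pairing the interval included 0 for Cyr61, Med21, Hbb-y, Gal, Slc6a15, H1f0, Etv5, Trerf1, Mafa, Esyt1, Eif4ebp1 and Igfbp1. It excluded 0 for the rest of these genes. Gap43 (chromosome 16, 42248561 to 42340651), a membrane protein of growth cones, had the largest difference among the 12 lower ones. It stood at 577, 766, 669 and 908 scaled FPKM in GFP and at 410, 205, 394 and 321 in WT. The groups did not overlap, and the log2 difference was -1.16 (-1.84 to -0.49), with -0.49, -1.89, -0.76 and -1.50 in pairs 1 to 4 and -0.92 without replicate 2. Of its variance 75.9% lay between the viruses. At 4 h it stood at 722 and 549 scaled FPKM with GFP and at 560 and 525 with WT (log2 difference -0.22).

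H1f0 (chromosome 15, 79028212 to 79030500), a linker histone of cells that have left the cycle, stood at 32.8, 29.8, 27.3 and 25.2 scaled FPKM in GFP and at 29.5, 23.9, 22.5 and 20.8 in WT (log2 difference -0.25, -0.40 to -0.10). Each WT library was below its GFP partner, with pair differences from -0.31 to -0.15, while the groups overlapped. Without the pairing the interval of H1f0 was -0.54 to 0.04. Hist1h4i, a core histone H4 gene, stood between 2.36 and 4.08 in GFP and between 1.02 and 1.93 in WT (log2 difference -0.70). Etv5, an ETS factor downstream of growth factor signals, was at -0.29, Eif4ebp1, a repressor of cap-dependent translation, at -0.31, Mafa, a leucine zipper factor, at -0.46, and Nup37, a nuclear pore protein, at -0.33. The others on the lower side were Trerf1, Plp2, Esyt1, Igfbp1 and C2cd4b, from -0.37 to -0.24. Groups did not overlap for Gap43, Hist1h4i and Nup37.

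On the higher side, Cenpl (chromosome 1, 161070892 to 161086343), a centromere protein, stood at 3.04, 1.88, 1.37 and 1.53 scaled FPKM in GFP and at 4.24, 3.90, 2.23 and 2.81 in WT. Its WT value exceeded its partner in every pair, with groups that overlapped, and the log2 difference was 0.54 (0.27 to 0.82), with 0.47 without replicate 2 and 0.28 at 4 h. Tstd1, a small sulfurtransferase, stood at 1.14, 0.754, 1.06 and 0.552 in GFP and at 2.00, 2.06, 1.83 and 2.21 in WT (log2 difference 0.70, 0.31 to 1.09), and was at -0.36 at 4 h. Snhg8, a noncoding host gene of a small nucleolar RNA, stood between 19.8 and 24.1 in GFP and between 24.3 and 30.0 in WT (log2 difference 0.28). Cyr61, a secreted matrix-associated protein, was at 0.43 and at 0.37 at 4 h. Gal, the precursor of galanin, was at 0.52, and at -0.55 at 4 h. Tbc1d7, a subunit of the TSC complex that restrains mTORC1, was at 0.25, and Med21, a Mediator subunit, at 0.28. Vkorc1, Bcap29, Atp5s and Slc6a15 lay between 0.25 and 0.44, and Hbb-y, an embryonic globin, was at 0.88 from low levels (a mean of 0.613 scaled FPKM in GFP and 1.99 in WT). The groups did not overlap for Tstd1, Snhg8, Tbc1d7, Vkorc1 and Atp5s.

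**Figure D3:**
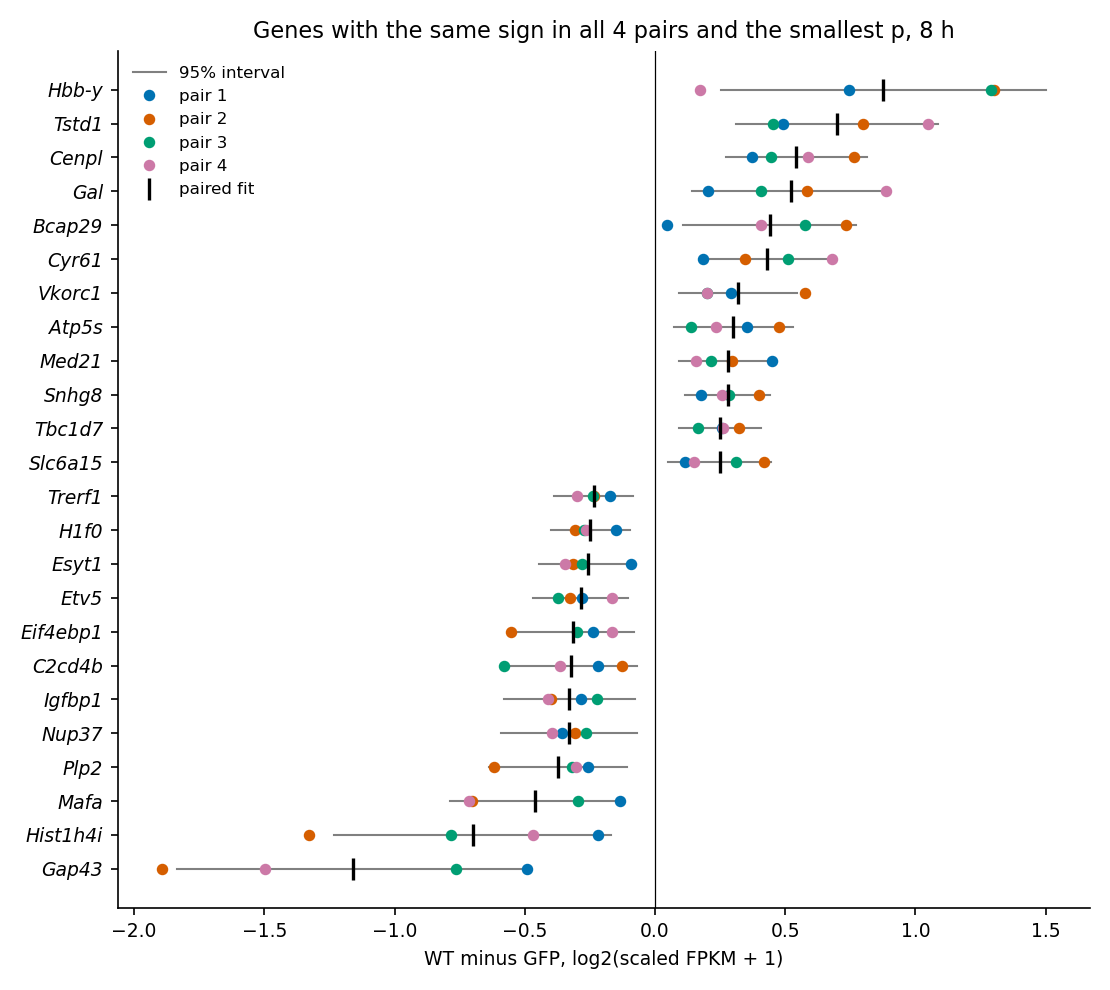
Difference of WT minus GFP on the log2(scaled FPKM + 1) scale for 24 genes chosen for the same sign in all 4 pairs and the smallest unadjusted p; points are pairs, black ticks the paired fit and grey lines 95% intervals. Gap43 has the largest difference, -1.16, with pairs from -1.89 to -0.49.

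The list of growth cone genes that holds Gap43 had no common direction with all pairs. Of 28 tested, 14 were higher and 14 lower with all pairs (median 0.00), and 24 were higher and 4 lower without replicate 2 (median 0.06). The list median was -0.001 with GFP replicate 2 alone left out and no pairing. Stmn2, a tubulin-binding protein of growing axons, stood between 754 and 962 scaled FPKM in GFP and between 767 and 1015 in WT (log2 difference 0.06, -0.14 to 0.26). Basp1 and Marcks, membrane proteins of the same class as Gap43, were at 0.04 and 0.23, and Dpysl2, a collapsin response mediator, at 0.10. Stmn1 stood at 862 in GFP replicate 2 and between 59.5 and 118 in the other 7 libraries. Survival genes divided 11 to 10 (median 0.01), and again 11 to 10 without replicate 2 (median 0.00). Bcl2, an inhibitor of cell death and a CREB target, was at 0.01 (-0.38 to 0.40), and Mcl1, its relative, at 0.13 (-0.27 to 0.52). Of 15 histone genes 4 were higher and 11 lower (median -0.20), with 6 and 8 of the 14 tested without replicate 2.

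Ribosomal protein and glycolysis genes were lower with WT in pair 2 and near 0 in the other pairs. Of 78 ribosomal protein genes 69 were lower (median -0.56), with medians of -0.08, -2.27, 0.00 and -0.04 in pairs 1 to 4, and 29 were higher and 41 lower without replicate 2 (median -0.03). Their summed level was 17207 scaled FPKM in GFP replicate 2 and between 5417 and 6763 in the other libraries. Gapdh, a glycolytic enzyme, stood at 134 in that library and between 0.718 and 1.64 in the others, and Rpl9 at 254 against 0.178 to 0.914. Both libraries of replicate 1 at 4 h shared the high levels of some of these genes: Rpl9 stood there at 254 with GFP and 257 with WT, Ppp1cc at 73.7 and 81.7 and Stmn1 at 1096 and 956, while Gapdh stood at 15.5 and 14.7. Glycolysis genes were lower in 15 of 22 (median -0.14) and had medians of 0.07, -0.58, 0.04 and -0.01 in the pairs. Without replicate 2, 13 were higher and 9 lower (median 0.01). The part in these results of how reads from near-identical copies were assigned was not tested. Respiratory chain genes divided 18 to 25 (median -0.02) and synaptic genes 12 to 25 (median -0.04), against 26 to 17 and 24 to 13 without replicate 2. Snap25, a vesicle fusion protein, was at 0.06 and Syt1, a synaptotagmin that senses calcium at the vesicle, at 0.02.

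**Figure D4:**
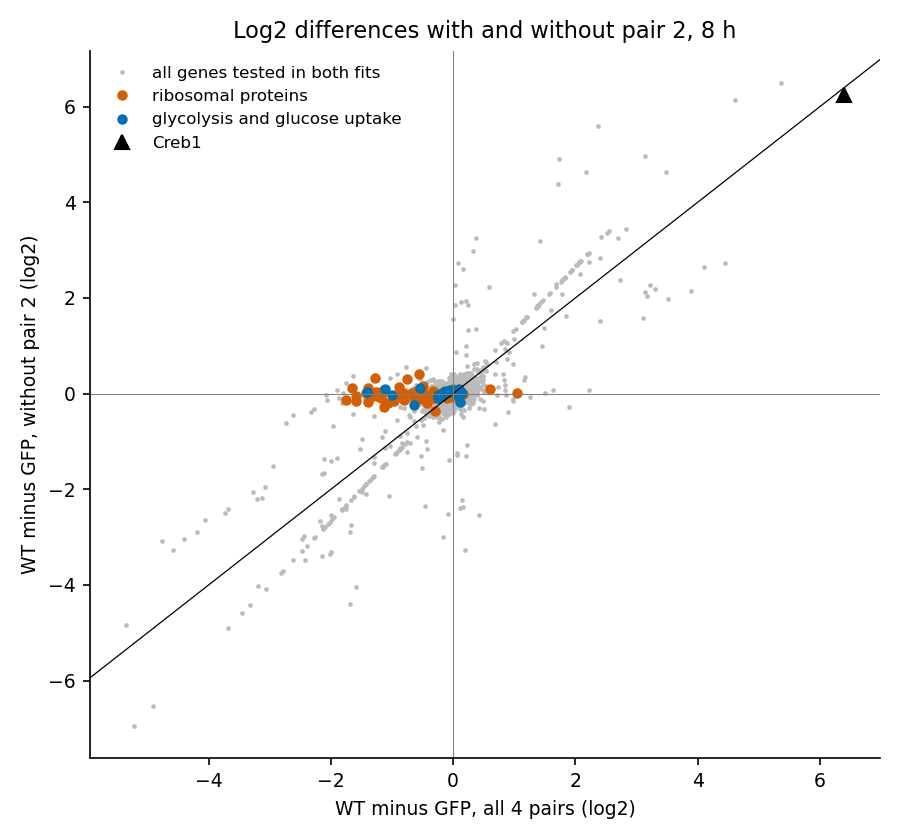
Log2 difference of WT minus GFP from the paired fit with all 4 pairs (horizontal axis) and without pair 2 (vertical axis) for every gene tested in both fits. Ribosomal protein and glycolysis genes spread to the left with all pairs and lie near 0 without pair 2, while Creb1 is at 6.39 and 6.24.

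No stress gene was called by limma. Of 21 heat shock chaperones 7 were higher and 14 lower (median -0.10), and 9 and 12 without replicate 2 (median -0.03). Hspa1b, an inducible HSP70, stood at 44.1, 116, 44.6 and 58.2 scaled FPKM in GFP and at 33.9, 42.5, 28.6 and 53.2 in WT. It was lower in each pair with overlapping groups (log2 difference -0.64, -1.22 to -0.05, adjusted p = 0.945 by limma, and -0.37 without replicate 2). Of 25 endoplasmic reticulum and integrated stress genes 18 were higher and 7 lower (median 0.07), and 13 and 12 without replicate 2. Hspa5, the BiP chaperone, was at 0.10 (-0.26 to 0.46). Interferon and antiviral genes were low in both groups, with 26 of 33 under 1 FPKM on average, among them Ifnb1, Mx1 and Oasl2. The 7 tested had a median of 0.15, with 0.52 in pair 2, and the median was 0.03 over the 5 tested without replicate 2. The list summed to between 25.7 and 34.1 scaled FPKM in GFP and between 25.7 and 44.2 in WT, the highest being WT replicate 2.

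The labelled cortical neurons carried their defining markers in all 8 libraries. Stmn2, Neurod6 and Tbr1 were well above the minimum, and excitatory markers divided 7 to 8 (median -0.04), and 8 to 7 without replicate 2 (median 0.02). Excitatory markers summed to 613 scaled FPKM in WT replicate 2, against 955 to 1039 in the other WT libraries and 844 to 981 in GFP. Inhibitory markers were higher in 13 of 16 with all pairs (median 0.12) and in 6 of 16 without replicate 2 (median -0.02). Their medians in pairs 1 to 4 were 0.16, 0.58, 0.20 and -0.44, and the list summed to 1063 scaled FPKM in WT replicate 2 against 538 to 645 in the other WT libraries. Gad1, a GABA-synthesizing enzyme, stood at 36.3, 51.6, 42.2 and 71.9 in GFP and at 43.5, 103, 45.5 and 52.2 in WT. Fewer cells of a type and less RNA per cell cannot be told apart in these bulk libraries.

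Markers of other cells varied between the libraries of a pair. Astrocyte and radial glia markers were lower in 16 of 17 (median -0.15), yet in pair 3 all 17 were lower with WT (median -0.93) and in pair 4 16 of 17 were higher (median 0.46). Without replicate 2, 15 of 17 were lower (median -0.19). Gfap, the astrocyte filament, stood at 4.45, 20.6, 20.1 and 3.19 scaled FPKM in GFP and between 1.99 and 13.5 in WT. Fabp7, a radial glia fatty acid binding protein, stood at 76.6, 93.2, 173 and 55.8 in GFP and at 59.2, 40.6, 80.7 and 120 in WT. Only 4 of 14 microglia markers passed the minimum. Tyrobp, a microglial signaling adaptor, stood between 0.833 and 2.30 in GFP, at 12.6 in WT replicate 2 and between 0.565 and 3.18 in the other WT libraries, and the list summed to between 6.63 and 14.3 in GFP and between 9.19 and 43.4 in WT. Cx3cr1, Tmem119 and P2ry12, which define microglia, stayed under 0.3 in each library. Other microglia markers under the minimum were high in WT replicate 2, with Trem2 at 3.805, C1qa at 3.466 and C1qb at 3.509. These 3 stood at 1.142 or less in the other libraries, while Aif1 was at 0 in WT replicate 2. Oligodendrocyte lineage markers summed to between 34.0 and 66.1 in GFP and between 31.6 and 89.0 in WT, and Mbp, a myelin protein, stood at 46.5 in WT replicate 2. Cell cycle genes divided 8 to 7 with all pairs (median 0.02), and 4 were higher and 11 lower without replicate 2 (median -0.13). Of 14 vascular and fibroblast markers 11 lay under the minimum, and the list summed to between 4.48 and 12.6 scaled FPKM per library, and the blood list was left with Hbb-y. The part of these cells in the results above was not tested.

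**Figure D5:**
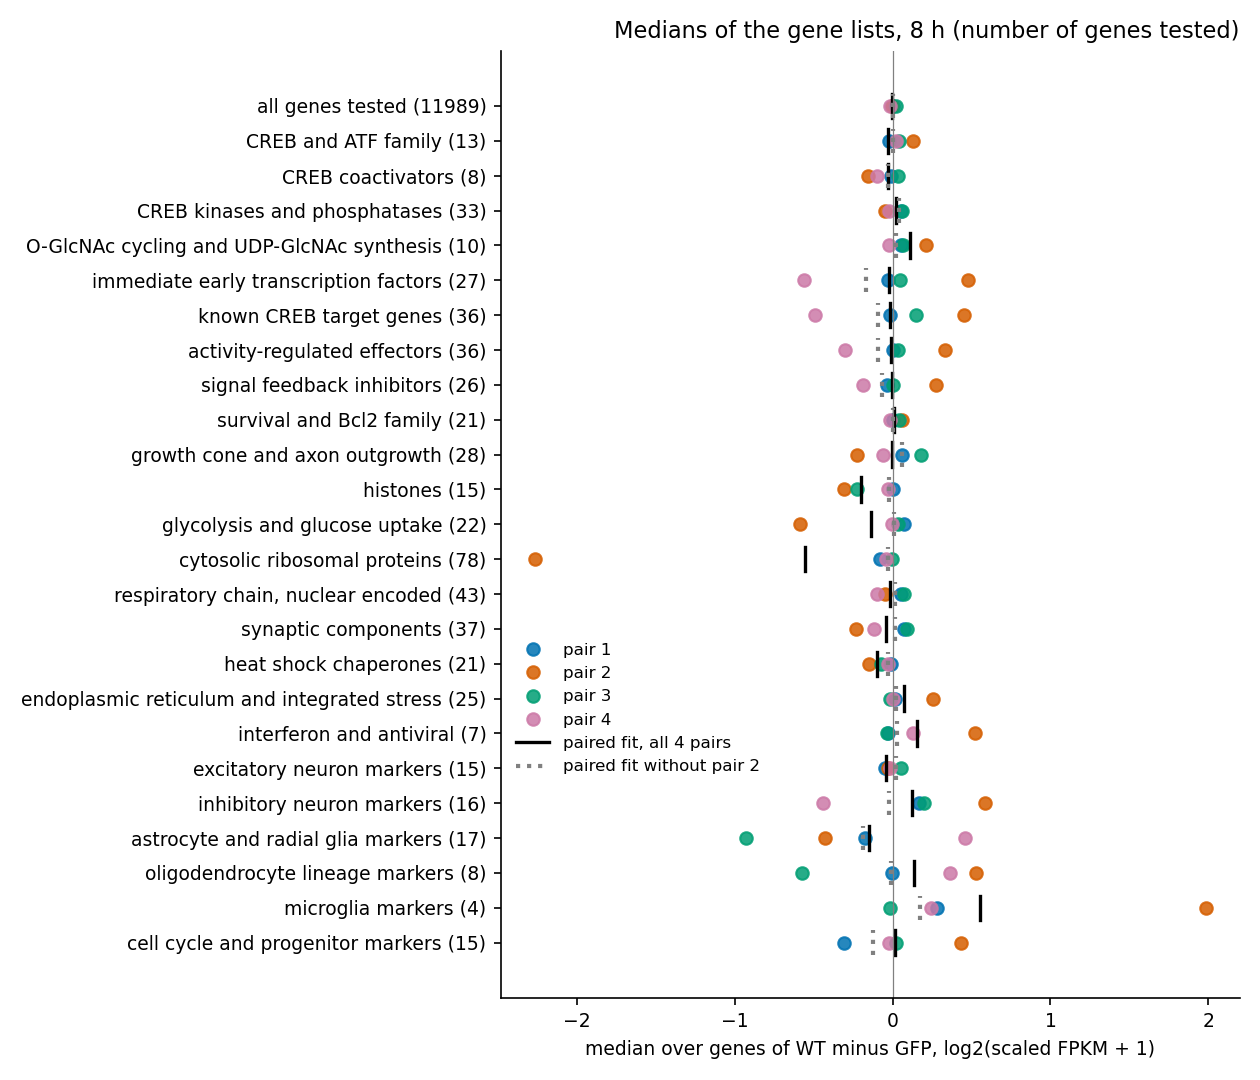
Median over genes of WT minus GFP on the log2(scaled FPKM + 1) scale for all genes and for each list with at least 4 genes tested, by replicate pair (colored points), from the paired fit (black tick) and from that without pair 2 (dotted tick). Ribosomal proteins are at -2.27 and microglia markers at 1.99 in pair 2, and the activity lists have opposite signs in pairs 2 and 4.

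The precision of each gene is given by its unadjusted 95% interval. The median half-width of the 95% interval was 0.28 on the log2 scale with all pairs and 0.21 without replicate 2. For 11182 of 11989 genes the whole interval lay within 1 log2 unit of 0. That is within a 2-fold difference of scaled FPKM + 1, which allows more than 2-fold in FPKM for low genes. The same held for 26 of 27 immediate early factors, 34 of 36 CREB targets, 32 of 36 effectors and all 37 synaptic genes, against 27 of 78 ribosomal genes. For the immediate early factors the median half-width was 0.50. These intervals and counts are from the paired fit, although the numbers are not shown to pair the samples. Over all genes the median half-width was 0.32 without the pairing. Pairs held a median of 90.0% of the variance of the immediate early factors, and their count within 1 log2 unit was not taken without the pairing. Long named genes with a fitted difference above 2-fold on that scale numbered 65, of which 52 were lower. Of the 65, 7 stayed above 2-fold without replicate 2.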

How the data were processed

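The deposited tables hold FPKM values per gene from total RNA, per the labels. The submitters' processing notes name CASAVA 1.7, Bowtie 0.12.2, Cufflinks and the builds mm8 and mm10 without a role; the assignment of reads with several matches and the use of strand are not given in the sources used here. FPKM values were scaled by the median of ratios, and log2(scaled FPKM + 1) was fitted for the 8 libraries with limma 3.58.1 (R 4.3.3), with a trend in the variance and the replicate number as a block. Fold changes are on that scale, which understates changes of low genes. Genes needed a mean of at least 1 FPKM, and 13 entries above it with a failed estimate were left out, which left 11989 genes, 11085 of them named and at least 200 bp long. P-values were adjusted by the Benjamini-Hochberg method over all genes tested with a threshold of 0.05. The rest was done in Python 3.11.15 (pandas 2.3.3, numpy 2.4.6) and drawn with matplotlib 3.10.9, with names from GENCODE M21. The fit was tested on simulated data.

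The genes named outside the lists were long named genes with 1 sign in all 4 pairs and the smallest p, 12 in each direction. The libraries and the 26 gene lists were chosen with earlier results of these data known. Pair 2 correlated at 0.0469, under the 0.1 asked of each pair, so the numbers are not shown to pair the samples. Both fits are given for Creb1 and the counts of calls, and in part for the genes named outside the lists. Other intervals are from the paired fit alone. Matching to RefSeq promoters reached 8867 of 11085 genes, under the 80% needed, so no comparison of promoter classes is reported.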

Additional observations from a re-analysis of the deposited data

Results flagged for a closer look

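Single libraries lay far from the other 3 of their group in 9 cases among the genes checked. Chance was taken to flag about 1 in 20 groups, a rate not measured in these data. The number of groups checked is not given, so the 9 cases cannot be set against that rate. GFP replicate 3 was low for Npas4 (33.0 scaled FPKM), Scg2 (13.4), Sst (66.5) and Atf1 (2.35). GFP replicate 2 was high for Gapdh (134) and Rpl9 (254) and low for Vkorc1 (7.84). WT replicate 1 was high for Vkorc1 (13.4), and GFP replicate 1 for Hbb-y (2.28).

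The difference of WT minus GFP differed between 8 h and 4 h, by limma's test of that difference, for 4 small RNA entries. It was 8.13 on the log2 scale for DQ267100, 6.37 for Mir92b, 5.88 for Snord92 and -5.88 for Mir6399. Mir6399 was listed at 53.1 and 62.9 scaled FPKM in the WT libraries at 4 h and at 0 in the other 10 libraries of the fit. Mir92b and Snord92 were listed above 0 in the GFP libraries at 4 h alone.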

How the results depend on the processing

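The paired fit called 0 genes. The count was 1 each without the replicate block, with the file-number set as the term, with all 16 libraries at 8 h, with array weights, without pairing and GFP replicate 2, and among long named genes only, and 0 to 2 when a replicate number was left out (Mir106b without replicate 1, Snord35b and Snord95 without replicate 3). Creb1 passed under the first of these at 6.39 (adjusted p = 5.27e-04 without the replicate block), with the set term at 6.39 (0.00266), with 16 libraries at 6.39 (3.09e-05), with array weights at 5.93 (0.0232), without pairing and GFP replicate 2 at 6.30 (0.00527), and among long named genes at 6.39 (0.0211), all by limma. The fit without replicate 2 called 0 genes, 1 among long named genes and 6 to 11 when a further replicate was left out. Fits with a further replicate left out have 1 residual degree of freedom. Most of their calls were small RNA entries, while Creb1 was called when replicate 4 was left out and Srrd when replicate 3 was. At 4 h the count was 4, and 6 without 8 h replicate 2; between times it was 4, 3 without the block and 6 without that replicate. The cause was not tested. The 24 other named genes kept their direction in 422 of 422 alternative values with 0 called. They were chosen for the same sign in all pairs, so the kept direction largely follows from that choice and is no support. Of 464 list medians, 448 moved by less than the SD of the pairs. The choices of a robust variance, long named genes only and no genes with a named pseudogene were made after seeing the data. The paired fit has 3 residual degrees of freedom, and Creb1 itself did not pass the adjusted threshold in it.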

Other observations

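Some long named genes, chosen after their values were seen, were listed at 0 in some libraries and well above it in others. Mea1 was listed at 0, 0, 49.9 and 49.9 scaled FPKM in GFP replicates 1 to 4 and at 42.8, 0, 44.1 and 54.6 in WT. Srrd was listed at 0, 0, 6.37 and 0 in GFP and at 8.59, 0, 10.5 and 7.87 in WT. Rbm14-rbm4 and Rbm4 overlap on chromosome 19, so their values are uncertain: Rbm4 was listed above 0 in GFP replicate 4 alone, at 9.98, where Rbm14-rbm4 was at 0.

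Xist, the X inactivation RNA, stood at 27.5 scaled FPKM in GFP replicate 2 and 70.0 in WT replicate 2, and between 0.0318 and 0.113 in the other 6 libraries. Eif2s3y, on the Y chromosome, stood at 0.0954 in GFP replicate 1 and near that in GFP replicate 2, at 2.99 in WT replicate 2 and between 19.1 and 22.9 in the other 5 libraries.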
